A study of Homo sapiens with 6 samples.

Results

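The mitochondrial ribosomal protein genes were examined as the genes whose symbol was MRPL or MRPS followed by a number and, in some cases, a letter. The rule looked only at symbols and found 78 of the 26822 gene symbols in the authors' table. The study transfected MCF10A cells, an established line of non-tumorigenic human breast epithelial cells, with 30 nM of a non-targeting siRNA (siNT) or of siRNAs against PAX9 (siPAX9), a transcription factor of RNA polymerase II. RNA was harvested after 72 hours from 3 samples of each group, and poly(A)+ RNA was sequenced. The MCF10A background was common to both groups.

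The authors deposited 1 combined FPKM (a read count corrected for transcript length and library size) per gene locus and group. Each value below is therefore the authors' value for a group of 3 samples, with no replicate value beside it. From these values no error could be computed and no test could be made, and the number of reads behind a value is unknown. Changes are given as the log2 of the FPKM in siPAX9 over that in siNT, so that -1 is a level 2-fold lower. In bulk RNA, a smaller share of cells that express a gene and less RNA per cell cannot be told apart.

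Mitochondria carry their own ribosome, which makes the few hydrophobic subunits of the respiratory chain that mitochondrial DNA encodes. Its RNAs come from mitochondrial DNA, but every one of its proteins is encoded in the nucleus, translated in the cytoplasm and imported. Some of these proteins have a bacterial counterpart, while others were gained in mitochondria and cover much of the surface of the particle. The large subunit holds the site of peptide bond formation and the exit tunnel, which opens at the inner membrane. The small subunit binds and decodes the mRNA.

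PAX9 itself was listed at 2.80 FPKM in siNT and 0.325 in siPAX9, a log2 change of -3.10 (-1.52 with 1 added to both values). The 8 basal epithelial markers examined were present in both groups, 6 of them higher in siPAX9 and 2 lower. KRT5, a keratin of basal cells, was at 1558 FPKM in siNT and 1807 in siPAX9, TP63 at 35.4 and 25.3, EGFR at 64.3 and 58.1, and CDH1, which encodes E-cadherin, at 45.3 and 124. Of 11 markers of leukocytes, endothelium, fibroblasts and hormone receptor-positive epithelium, 4 passed a mean of 1 FPKM. DCN, a proteoglycan of connective tissue, was at 5.85 and 37.9 FPKM, COL1A1 at 0.454 and 4.13, CD68 at 3.38 and 3.77, and PECAM1 at 2.58 and 0.495. CD3E and COL3A1 were listed at 0 in both groups, and PTPRC was at 0.0166 and 0.0922 FPKM. Each of the 10 proliferation markers examined was lower in siPAX9 (median log2 change -1.71). Each of 11 squamous differentiation markers was listed higher in siPAX9, 3 of them from 0 in siNT. Of the 11, 6 had a mean of at least 1 FPKM and a value above 0 in both groups. Among the others, LOR was at 0 and 0.0171 FPKM and FLG at 1.02e-05 and 0.130. KRT10, a keratin of differentiating layers, was at 20.98 and 148 FPKM, the crosslinking enzyme gene TGM1 at 10.6 and 53.6, and SPRR1B, of the cornified envelope, at 3.18 and 334. The summed FPKM of all symbols that passed was 606686 in siNT and 504447 in siPAX9. The part of these differences in the values below was not tested.

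Most mitochondrial ribosomal protein mRNAs were modestly lower in the cells that received siPAX9. All 78 genes had a mean of at least 1 FPKM. Of these, 68 (87.2%) were lower in siPAX9 and 10 were higher, whereas 55.4% of the 13145 symbols with such a mean and a value above 0 in both groups were lower. The median log2 change of the 78 genes was -0.34, a ratio of 0.792, and the middle of the distribution ran from -0.54 to -0.17 (quartiles). The median of all symbols was -0.07. Among the 8018 symbols with a mean FPKM within the range of the 78 genes, 58.9% were lower and the median was -0.10.

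The pattern was one of many small differences. At least 1.5-fold lower were 17 genes (21.8%), beside 16.5% of all symbols and 14.7% of those in the same range of FPKM. None was at least 1.5-fold higher, beside 13.3% and 8.74%, respectively. At least 2-fold lower were 4 genes (5.13%), beside 6.57% of all symbols and 4.75% of those in the same range, so that the share past 2-fold was near that of other genes. None was at least 2-fold higher, beside 6.37% and 3.62%. The genes nearest to the 1.5-fold limit were MRPL9 just inside it, at -0.59, and MRPS34 just outside, at -0.57. For the 2-fold limit they were MRPL45 (-1.04) and MRPL23 (-0.84).

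**Figure D1:**
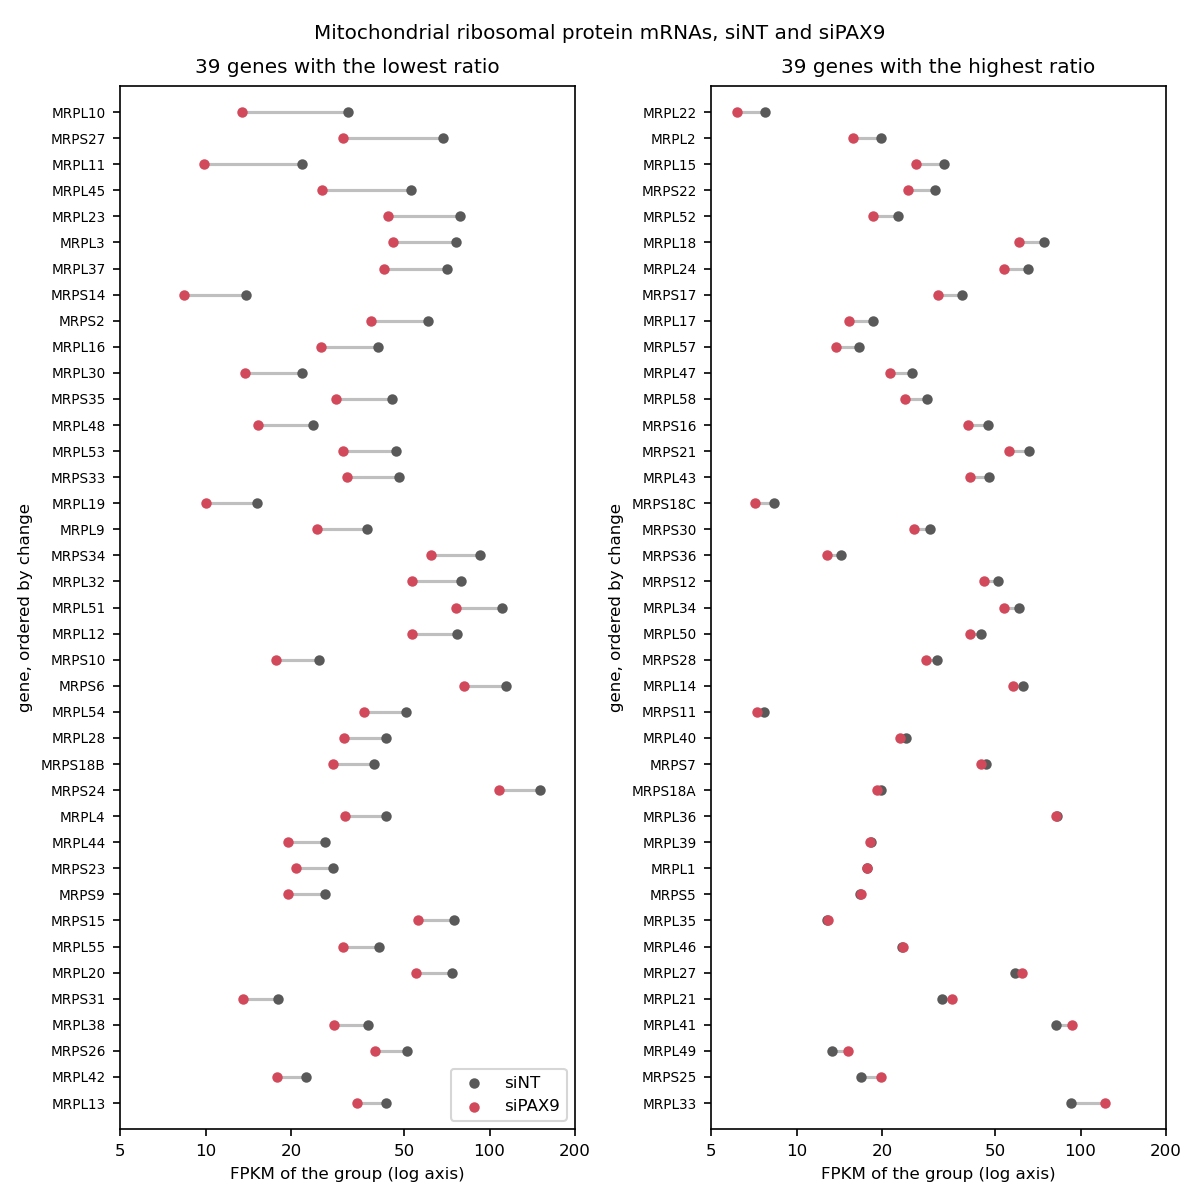
FPKM of each of the 78 mitochondrial ribosomal protein genes in siNT (grey) and siPAX9 (red) on a log axis, 1 row per gene and 1 combined value per group, ordered from the lowest ratio (top left, MRPL10) to the highest (bottom right, MRPL33). The red point lies to the left of the grey one in 68 rows, and the longest lines are those of MRPL10, MRPS27, MRPL11 and MRPL45.

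The summed FPKM of the 78 genes was 3432 in siNT and 2685 in siPAX9, a ratio of 0.782. The sum over all symbols that passed was also lower in siPAX9, at 606686 in siNT and 504447 in siPAX9. In these sums, a locus with several symbols counted once for each symbol. The large subunit genes summed to 2201 and 1766 (ratio 0.802) and the small subunit genes to 1231 and 919 (ratio 0.747). The median level of the 78 genes was 38.7 FPKM in siNT and 28.5 in siPAX9, whereas that of all symbols was 11.0 and 10.8. The order of the genes by level was largely kept, with a Spearman correlation of 0.95 and a Pearson correlation of 0.94 between the log2 levels of both groups across 78 genes. Level and change were nearly unrelated (Pearson -0.07, Spearman -0.14), and longer proteins went with slightly lower ratios (Pearson -0.25, Spearman -0.23). These are descriptions across genes of the same samples, and genes are not independent replicates.

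The highest mean level was that of MRPS24, the counterpart of bacterial S3 at the mRNA entrance, at 150 FPKM in siNT and 108 in siPAX9. Its locus in the table also carried URGCP, so the value is of both genes. MRPL33, a short protein of the large subunit, followed at 92.9 and 121.9 FPKM, which placed it at rank 4 in siNT and rank 1 in siPAX9. MRPS6, on a locus shared with SLC5A3, was at 114 and 81.5 FPKM. MRPL51 was at 111 and 76.4, and MRPL41 at 81.8 and 93.1. The highest levels thus included genes that were lower and genes that were higher in siPAX9. The lowest were MRPL22 (7.76 and 6.17 FPKM), MRPS11 (7.69 and 7.25) and MRPS18C (8.32 and 7.14), and all 3 were lower by less than 1.5-fold. From the lowest to the highest gene, the levels spanned 19.5-fold in siNT and 19.7-fold in siPAX9.

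The stalk of the large subunit, which binds the translation factors that drive the ribosome, held the 2 lowest ratios of the large subunit. MRPL10 (chr17:45900638-45908907 on hg19), the anchor of the stalk, had 31.6 FPKM in siNT and 13.4 in siPAX9, a log2 change of -1.24, the lowest of the 78 genes. MRPL11 (chr11:66202546-66206319), at the base of the stalk, had 21.8 and 9.89 FPKM, a change of -1.14. MRPL12, the mobile stalk protein, had 76.8 and 53.4 FPKM and a change of -0.53. All 3 stalk genes were thus lower, and MRPL12 by less than 1.5-fold.

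At the exit tunnel, all 6 genes listed were lower, with a median of -0.31. MRPL45 (chr17:36452989-36479101), which ties the ribosome to the inner membrane, had 52.8 FPKM in siNT and 25.6 in siPAX9, a change of -1.04. MRPL23, on the rim of the tunnel, had 78.4 and 43.9 FPKM and a change of -0.84. The other 4 (MRPL17, MRPL22, MRPL24 and MRPL47) lay between -0.33 and -0.26. At the tunnel, MRPL45 and MRPL23 were thus the genes past 1.5-fold.

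In the central protuberance, the crest of the large subunit at the interface to the small subunit, 5 of 7 genes were lower, with a median of -0.30. MRPL48 had 23.9 FPKM in siNT and 15.3 in siPAX9 (-0.64), while MRPL46 had 23.4 and 23.7 (0.02) and MRPL27 had 58.8 and 62.2 (0.08). Elsewhere in the large subunit, MRPL3, next to the peptidyl transferase centre, had 76.3 and 45.6 FPKM (-0.74). MRPL37, a protein found only in mitochondrial ribosomes, had 70.7 and 42.4 FPKM (-0.74). MRPL16, which lies near the tRNA sites, had 40.4 and 25.5 FPKM (-0.66).

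By subunit, 43 of 51 large subunit genes were lower (84.3%, median -0.33), and 25 of 27 small subunit genes (92.6%, median -0.40), beside 55.4% of all symbols. At least 1.5-fold lower were 12 large subunit genes (23.5%) and 5 small subunit genes (18.5%), beside 16.5% of all symbols. At least 2-fold lower were 3 (5.88%) and 1 (3.70%), respectively, beside 6.57% of all symbols. The small subunit count includes MRPS36, by its symbol alone. The large subunit count includes MRPS30 and MRPS18A, which carry small subunit names but sit in the large subunit. Both were lower by little, MRPS30 with 29.6 FPKM in siNT and 25.9 in siPAX9 (-0.19) and MRPS18A with 19.8 and 19.2 (-0.05, and above 0 when the median of all symbols was taken off). Of 30 large subunit genes with a bacterial counterpart, 25 were lower, with a median of -0.34. Of 19 found only in mitochondria, 16 were lower, with a median of -0.30. In the small subunit, 15 of 16 genes with a bacterial counterpart were lower (median -0.26), and 8 of 9 found only in mitochondria (median -0.44). The 4 medians lay closer together than the genes within each class, and whether the classes differed was not tested. Outside these 4 lists were MRPL58, a peptidyl-tRNA hydrolase built into the large subunit, MRPS18A, MRPS18B and MRPS36.

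In the small subunit, MRPS27 (chr5:71515236-71616084), a helical repeat protein found only in mitochondria, was lowest, with 68.6 FPKM in siNT and 30.5 in siPAX9, a change of -1.17. By level it was at rank 16 of 78 in siNT and at rank 35 in siPAX9. MRPS14 had 13.9 and 8.39 FPKM (-0.73), and MRPS2, the counterpart of bacterial S2, had 60.8 and 38.3 (-0.67). MRPS25 stood on the other side, with 16.8 and 19.8 FPKM (0.24). The 3 paralogs of bacterial S18 had separate values, MRPS18B with 39.1 and 28.1 FPKM (-0.48), MRPS18C with -0.22 and MRPS18A with -0.05. MRPS36, which is now known as KGD4, a subunit of 2-oxoglutarate dehydrogenase, and is kept here by its symbol, had 14.3 and 12.8 FPKM (-0.17).

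The genes with the highest ratios were few and their differences small. MRPL33, described above, had a log2 change of 0.39, the highest of the 78, and was followed by MRPS25. MRPL49 had 13.3 FPKM in siNT and 15.2 in siPAX9 (0.19), MRPL41 was at 0.19 as well, and MRPL21 had 32.5 and 35.4 FPKM (0.12). MRPL1, MRPS5, MRPL35 and MRPL46 lay between 0.00 and 0.02. When the median of all symbols was taken off each value, 64 rather than 68 genes were lower, since MRPS7, MRPS18A, MRPL36 and MRPL39, all between -0.05 and -0.01, then lay above 0.

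Variants in some of these genes cause inherited deficiencies of mitochondrial translation, in which heart, liver, brain or ovary can be affected. Of 12 such genes listed, 11 were lower in siPAX9, with a median of -0.44. At least 1.5-fold lower were 3 of the 12 (25%, beside 16.5% of all symbols), namely MRPL3, MRPS14 and MRPS2. MRPS34 had 92.7 FPKM in siNT and 62.3 in siPAX9 (-0.57). MRPL12 was at -0.53, MRPL44 at -0.44, MRPS23 at -0.44, MRPS22 at -0.31, MRPS16 at -0.24, MRPS28 at -0.12 and MRPS7 at -0.05. MRPS25 was the gene that was higher.

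Set beside other gene groups, the mitochondrial ribosomal protein genes lay between the cytoplasmic ribosomal protein genes and the subunits of respiratory complex I. The cytoplasmic group was lower throughout (77 of 77 genes, median -0.75). Of these, 57 (74.0%) were at least 1.5-fold and 13 (16.9%) at least 2-fold lower, beside 16.5% and 6.57% of all symbols. The complex I genes were taken by symbol alone (NDUFA, NDUFB, NDUFC, NDUFS or NDUFV and a number), so not each need be a subunit of complex I. Of these 37 genes, 29 were lower, with a median of -0.12 and none at least 1.5-fold. The 3 groups were measured in the same samples, and the differences between them were not tested.

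The other proteins of the mitochondrial ribosome, whose symbols do not begin with MRP, were also lower by small amounts. DAP3, a GTP-binding protein of the small subunit, had 50.6 FPKM in siNT and 39.0 in siPAX9 (-0.37). GADD45GIP1 was at -0.27, CHCHD1 at -0.20, AURKAIP1 at -0.18 and PTCD3 at -0.09. The median of the 5 was -0.20.

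Of 27 genes that assemble the mitochondrial ribosome or modify its RNA, 20 were lower, with a median of -0.12. NOA1, a GTPase of small subunit assembly, had 38.9 FPKM in siNT and 16.7 in siPAX9 (-1.22). RPUSD4, a pseudouridine synthase, was at -0.94 and MTERF3 at -0.66, whereas NGRN was at 0.38, MPV17L2 at 0.34 and MTERF4 at 0.32. Of 18 factors of mitochondrial translation, 14 were lower (median -0.23). The lowest of these were RMND1 (-0.85), the recycling factor gene MRRF (-0.79) and OXA1L (-0.75), the insertase that receives the new chains at the inner membrane. The highest were MTIF3 (0.31), MTRF1L (0.17) and TACO1 (0.14). Both lists thus held a few genes far below 0 among many close to it.

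Of 17 mitochondrial aminoacyl-tRNA synthetase genes, 12 were lower (median -0.25), with WARS2 at -1.01 and NARS2 at -0.70 as the lowest and VARS2 (0.23), CARS2 (0.29) and AARS2 (0.52) as the highest. Of 12 genes that copy or transcribe mitochondrial DNA or process and degrade its RNA, 10 were lower (median -0.28), with TFB2M at -0.65, TFAM, which packages mitochondrial DNA, at -0.59 and POLG2 at -0.56, and TEFM at 0.32 and MTERF1 at 0.18 as the 2 that were higher. Of 22 genes of the import translocases, 20 were lower (median -0.35), with TIMM9 at -1.13, TOMM20 at -0.76 and TOMM22 at -0.76, and TIMM17A at 0.39. The import list thus had the median closest to that of the mitochondrial ribosomal protein genes. The mRNAs encoded by mitochondrial DNA were not analysed here.

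Among transcription factors and coactivators of nuclear genes for mitochondrial proteins, 9 of 10 passed the mean of 1 FPKM, and 5 of these were lower (median -0.08). MYC, which also drives ribosome production, had 394 FPKM in siNT and 248 in siPAX9 (-0.67). GABPB1, a partner of the ETS factor GABPA, was at -0.54 and the coactivator PPRC1 at -0.37. GABPB2 was at 0.28, ESRRA at 0.21 and NRF1 at 0.05, and YY1 was at 0.02.

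**Figure D2:**
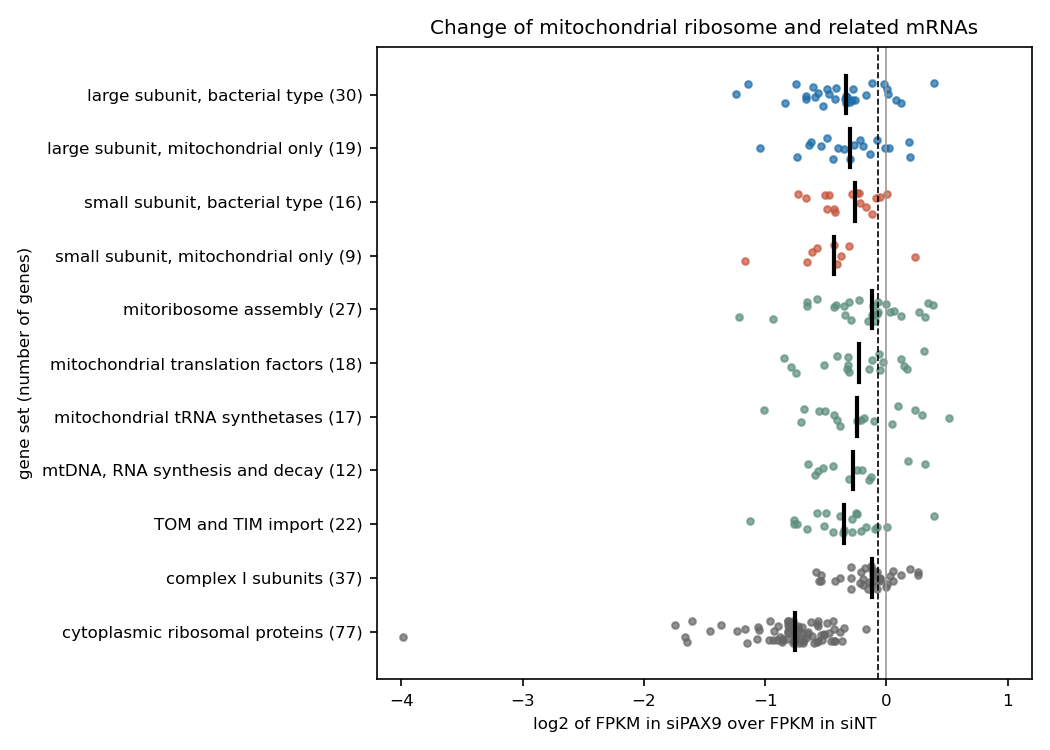
Log2 of FPKM in siPAX9 over siNT for the mitochondrial ribosomal protein genes by subunit and origin (blue and red), for related mitochondrial gene sets (green), and for complex I and cytoplasmic ribosomal protein genes (grey), 1 point per gene, with the number of genes in brackets. The short bars are medians and the dashed line is the median of all symbols (-0.07); the 4 mitochondrial ribosomal classes have medians between -0.44 and -0.26, and the cytoplasmic ribosomal proteins -0.75.

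The sequences at the annotated starts (250 bases before and 50 after the start) came from a set of RefSeq starts on GRCh38.p14, in which 69 of the 78 genes were found. MRPL10, MRPL13, MRPL15, MRPL2, MRPL21, MRPL23, MRPL35, MRPS28 and MRPS36 had no entry in this set. Whether RefSeq annotates them elsewhere was not examined. Exact letter strings were searched on both strands, and no string searched contained another. The string CCGGAAG, of the type bound by ETS factors such as GABPA, was in 29 of 69 windows (42.03%), beside 20.4% of 9094 windows of coding genes and 33.9% of 62 cytoplasmic ribosomal protein genes. The string AANATGGC, of the type bound by YY1, was in 25 (36.2%), beside 10.9% and 16.1%, respectively. The median change was -0.40 with the ETS-type string and -0.34 without, and these were also the medians with and without the YY1-type string.

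The 100 bases before the starts of MRPS27 (the lowest small subunit gene), MRPL11 (the lowest with an entry in the large subunit), MRPL33 (the highest ratio) and MRPL27 (back to back with EME1, described below) are shown to set genes of opposite direction side by side. Capitals mark the ETS-type string, the SP1-type string GGGCGG on either strand, and the CCAAT box. They read from 5' to 3' on the gene's own strand, at chr5:72320241-72320340 (minus), chr11:66438849-66438948 (minus), chr2:27771619-27771718 (plus) and chr17:50373185-50373284 (minus) on GRCh38.p14.
MRPS27: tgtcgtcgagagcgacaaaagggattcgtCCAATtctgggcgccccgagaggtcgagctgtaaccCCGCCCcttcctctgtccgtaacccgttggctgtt
MRPL11: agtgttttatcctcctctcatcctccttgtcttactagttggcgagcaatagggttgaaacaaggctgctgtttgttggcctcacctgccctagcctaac
MRPL33: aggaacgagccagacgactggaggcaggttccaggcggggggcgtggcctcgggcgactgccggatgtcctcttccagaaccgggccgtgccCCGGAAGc
MRPL27: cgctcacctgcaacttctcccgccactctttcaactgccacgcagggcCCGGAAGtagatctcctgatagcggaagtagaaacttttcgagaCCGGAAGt
The ETS-type string began 8 bases before the start in both MRPL33 and MRPL27, which were higher in siPAX9, with another at 52 bases before the start of MRPL27. It was absent from the stretches of MRPS27 and MRPL11, which were lower. Other genes that were lower carried it, among them MRPL3 (-0.74), MRPL16 (-0.66) and MRPL48 (-0.64), and the 4 stretches were chosen by their change, so no relation can be read from them. No binding was measured.

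Most YY1-type strings lay after the start, and 22 genes had one there on the coding strand, with its first base at positions 7 to 36 of the transcript. The ATG inside the string can be the start codon itself. On the canonical GENCODE transcripts of GRCh37, the string lay over the start codon in 21 of 78 mitochondrial ribosomal protein genes (26.9%), in 6.87% of 10503 coding genes and in 4 of 44 cytoplasmic ribosomal protein genes (9.09%). Only genes in which the start codon and the bases of the string around it lay within a single exon were counted. This count thus held 44 of the 77 cytoplasmic genes but all 78 mitochondrial ones. Stretches around the string, in capitals, are shown for MRPS14, MRPS30, MRPS7 and MRPL46, whose changes ran from -0.73 to 0.02, at chr1:175023390-175023419 (minus), chr5:44808952-44808981 (plus), chr17:75261890-75261919 (plus) and chr15:88467359-88467388 (minus) on GRCh38.p14.
MRPS14: tagcggacAACATGGCggccttcatgctgg
MRPS30: cgcgggcaAAGATGGCggcggccaggtgtt
MRPS7: ggccagccAAGATGGCtgcccccgcagtga
MRPL46: gagaacgaAAGATGGCggcgcccgtaaggc
The 21 genes with the string over the start codon had a median change of -0.33, and the others -0.34. The same letters were thus found in genes with a lower ratio and in genes with no difference.

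The remaining strings were about as common as in other genes, less common, or rare. GCGCANGCG, the NRF1 type, was in 13 of 69 windows (18.8%, beside 15.4% of all), GGGCGG, the SP1 type, in 42 (60.9%, beside 70.5%), CCAAT in 20 (29.0%, beside 37.3%), the E-box CACGTG in 6 (8.70%, beside 10.3%) and TATAAA in 2 (2.90%, beside 5.38%). Of the PAX9 binding sequences for which the study scanned, 2 were searched here and the others were not. GCGTGACCA was in the windows of MRPL4 and MRPS31 (2.90%, beside 0.264% of all). MRPL4 had 43.1 FPKM in siNT and 31.0 in siPAX9 (-0.47), and MRPS31 had 17.99 and 13.6 (-0.40). GCGGAACGG was in none of the 69 windows, beside 0.440% of all.

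A run of pyrimidines that begins with C at the start of the transcript, as in the 5' terminal oligopyrimidine (TOP) motif that puts the translation of cytoplasmic ribosomal protein mRNAs under control of mTOR, separated both kinds of ribosomal protein genes. A C followed by at least 4 pyrimidines stood at the annotated start of 42 of 62 cytoplasmic ribosomal protein genes (67.7%), 5 of 69 mitochondrial ribosomal protein genes (7.25%) and 5.51% of all windows. The 5 genes are shown with 10 bases before and 20 after the start, the run in capitals, at chr2:223957453-223957482 (plus), chr17:38297158-38297187 (plus), chr2:74472661-74472690 (minus), chr5:72320221-72320250 (minus) and chr7:141014933-141014962 (minus) on GRCh38.p14.
MRPL44: ccatcgttttCTCTCgtgcaatggcgtccg
MRPL45: ttcccggcggCCTTTgcgggaacaagatgg
MRPL53: tgcacgagttCTTCCggggcggaggtcacc
MRPS27: gttggctgttCCTTTTggtacgctccaaga
MRPS33: gagggcgggcCTTCCgggacgagggcgcgt
All 5 genes were lower in siPAX9, as were 68 of all 78 genes (87.2%), and whether the run went with the change was not tested. MRPL44 had 26.4 FPKM in siNT and 19.4 in siPAX9 (-0.44), MRPL53 had 46.9 and 30.5 (-0.62) and MRPS33 had 47.9 and 31.4 (-0.61). MRPL45 (-1.04) and MRPS27 (-1.17) were described above. MRPL53 shared its locus with CCDC142. In MRPL53 and MRPS33 the run overlapped the ETS-type string on the other strand, which began at the first base of the transcript. This feature was looked for after the changes were known, and the 5' ends used in these cells were not measured.

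**Figure D3:**
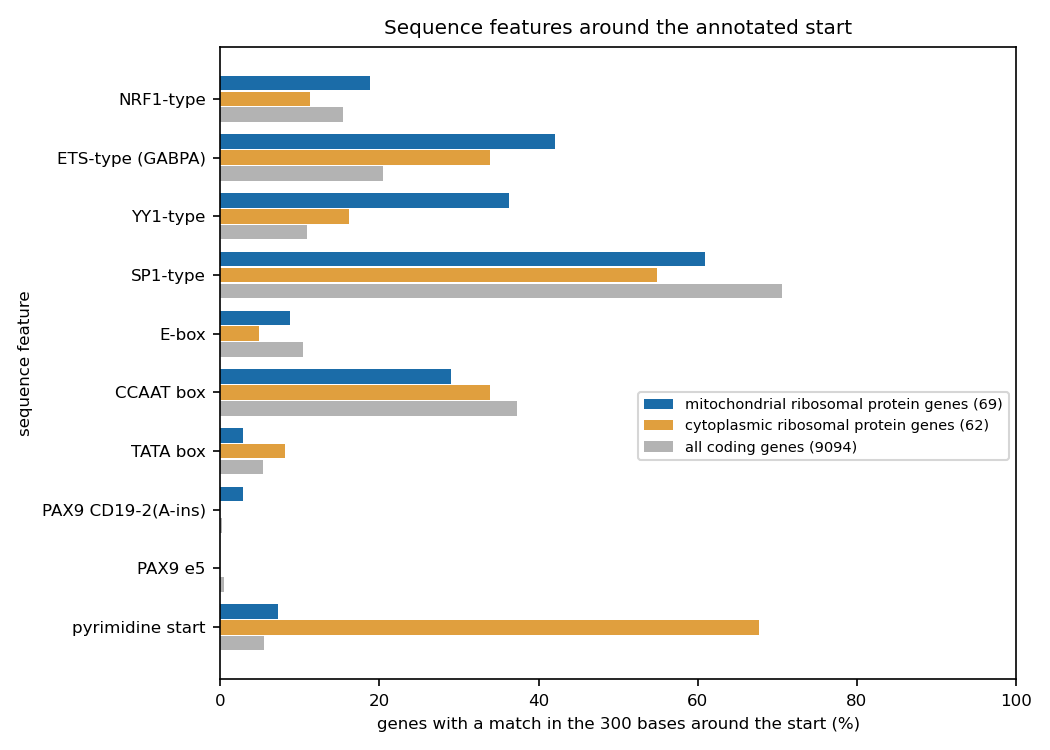
Percent of genes with each letter string in the 300 bases around the annotated start (RefSeq, GRCh38.p14), or with a pyrimidine run at the start. Shown are the genes with a window: mitochondrial ribosomal protein genes (blue, 69 genes), cytoplasmic ribosomal protein genes (orange, 62) and the coding genes that passed the FPKM filter (grey, 9094). The blue bars exceed the grey ones for the ETS type (42.03% and 20.4%) and the YY1 type (36.2% and 10.9%), and the orange bar is far above the others for the pyrimidine start (67.7%).

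Many of these genes start back to back with another gene. For 26 of the 78, the start of a coding gene on the opposite strand that ran the other way lay within 1000 bases in GENCODE, and 23 neighbours that were not themselves mitochondrial ribosomal protein genes had values. Of these 23 neighbours, 16 were lower in siPAX9 and 7 higher, with a median of -0.23, whereas 55.4% of all symbols were lower. The median of the mitochondrial ribosomal protein genes with a valued neighbour was -0.26. The values within a pair often lay apart.

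The widest gap was that of MRPL27 and EME1, whose starts were 45 bases apart. EME1, which encodes a subunit of a DNA junction endonuclease, had 2.25 FPKM in siNT and 0.470 in siPAX9 (-2.26), while MRPL27 was at 0.08. SKA3, a kinetochore gene 106 bases from MRPL57, was at -1.52 beside -0.26. NCAPD2, a condensin gene 840 bases from MRPL51, was at -1.42 beside -0.54, and MTBP, 269 bases from MRPL13, was at -1.06 beside -0.34. In these 4 pairs of the 23 the neighbour was at least 2-fold lower, beside 6.57% of all symbols, and the mitochondrial ribosomal protein gene was not. The loci of MRPL57 and MRPL13 also spanned SKA3 and MTBP, so their values may include reads of the neighbour.

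The reverse was seen for MRPS27, at -1.17, and PTCD2, another gene of a mitochondrial protein that starts 133 bases away, which had 4.88 FPKM in siNT and 4.50 in siPAX9 (-0.12). MRPL49 was at 0.19, while FAU, which encodes a cytoplasmic ribosomal protein and starts 187 bases away, had 368 and 261 FPKM (-0.50). TMEM63B, 102 bases from MRPL14, was higher at 0.53, beside -0.12. MRPL46 and MRPS11, which start 320 bases apart, were at 0.02 and -0.09. PPP1R10 and MRPS18B, 597 bases apart, were at -0.07 and -0.48. The loci of MRPL49, MRPL14 and MRPS18B also spanned FAU, TMEM63B and PPP1R10, respectively, so their values may include reads of the neighbour. The values of genes that shared a start region thus ranged from close, as in MRPL46 and MRPS11, to far apart.

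**Figure D4:**
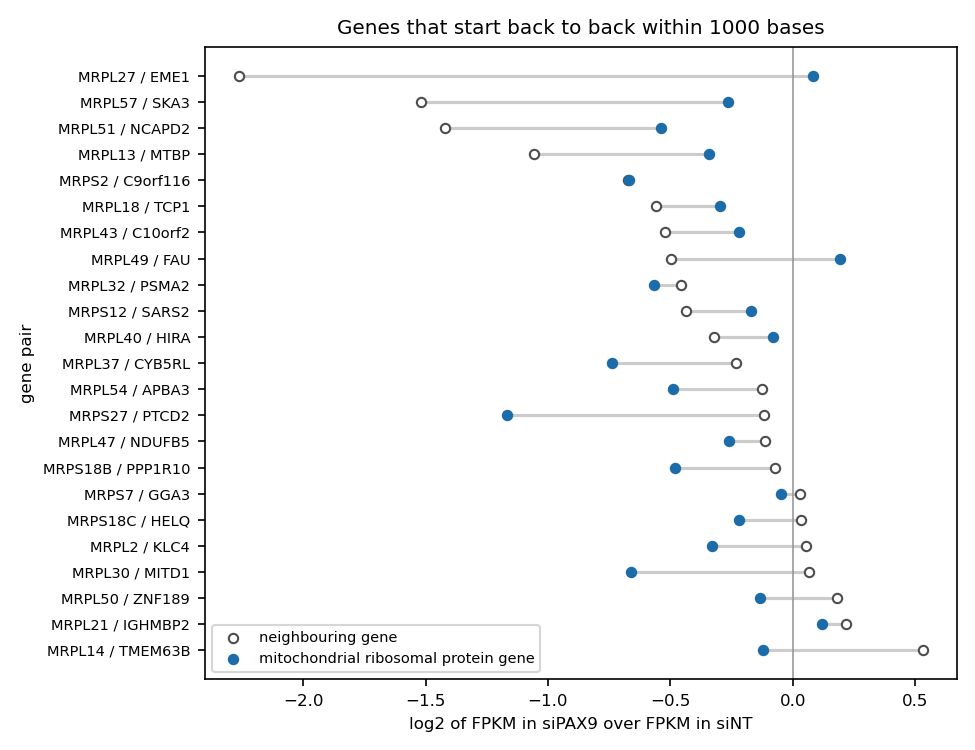
Log2 of FPKM in siPAX9 over siNT for 23 mitochondrial ribosomal protein genes (filled) and the neighbour (open) that starts on the opposite strand within 1000 bases, 1 combined value per group and gene. The open point of EME1 lies at -2.26 and the filled point of MRPL27 at 0.08, the widest gap, and the filled point of MRPS27 lies at -1.17 beside -0.12 for PTCD2.

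A locus in the table can take in more than 1 gene, and whether the authors counted reads by strand is not given in the sources used here. The 45 genes whose locus held no other coding gene had a median of -0.40, with 39 lower, 11 (24.4%) at least 1.5-fold and 4 (8.89%) at least 2-fold lower. The 33 genes that shared their span had a median of -0.28, with 29 lower, 6 (18.2%) at least 1.5-fold and none at least 2-fold lower. Of all symbols, 16.5% were at least 1.5-fold and 6.57% at least 2-fold lower. The locus of MRPL54 held 9 other coding genes. MRPS16, on a locus that also carried DNAJC9, had 47.4 FPKM in siNT and 40.0 in siPAX9. MRPS18B had 6 further rows on alternative copies of chromosome 6, all at 0 in both groups. GENCODE lists 80 pseudogenes of 36 of the 78 genes, with none for MRPL10, MRPL11 and MRPS27 and 2 for MRPL45, so reads of MRPL45 could in part be split. Its copy MRPL45P2 had 5.07 FPKM in siNT and 3.47 in siPAX9.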

How the data were processed

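Per the labels and the study's methods, the authors sequenced poly(A)+ RNA of 3 siNT and 3 siPAX9 samples as single-end reads and used Partek Flow, with Bowtie 2 for alignment to hg19 and Cufflinks for quantification. The deposited table gives 1 FPKM per locus and group, combined over samples by the authors. How libraries were scaled against each other is not given in the sources used here. The table also holds the authors' log2 fold change, test statistic, p-value, q-value and calls, which were not used.

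For each symbol the row with the highest mean FPKM was kept, and the log2 ratio was computed where both values were above 0 and their mean was at least 1. Folds of 1.5 and 2 were counted. Locus starts are printed 1-based. The computation was tested on simulated data. With 1 value per group, there was no test. The study's methods give a range of total reads per sample, but the deposited table gives no reads per sample or locus, so the depth behind each value was unknown.

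Named were PAX9, every gene past 2-fold, the 10 lowest and 5 highest ratios, the 5 highest and 3 lowest levels, the stalk, S18, misnamed, disease and shared-locus genes, those at the 1.5-fold limit, and the 3 lowest and 3 highest ratios of other lists, of which 1 gene is not reported here. Neighbours, other genes named beside sequences and the remaining exit tunnel and central protuberance genes were chosen after their values were seen. The genes and lists were chosen with earlier results of these data known. Alternatives were a pseudocount of 1, no filter, a mean of 10, centring, and other treatments of shared or repeated loci. Python 3.11.15, pandas 2.3.3 and matplotlib 3.10.9 were used.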

Additional observations from a re-analysis of the deposited data

How the results depend on the processing

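Adding 1 to each FPKM, dropping the filter, raising it to a mean of 10 FPKM (75 genes left), centring, leaving out loci with several symbols (74 genes left) and summing rows each kept the count of lower genes between 64 and 68, the count at least 1.5-fold lower between 12 and 17, that at least 2-fold lower between 3 and 4, and the median log2 change between -0.35 and -0.27, with no gene at least 1.5-fold higher. Leaving out genes whose locus held another coding gene, an alternative chosen after seeing the data, left 45 genes, so that 39 were lower and 11 at least 1.5-fold lower, with a median of -0.40. No paired analysis was possible because the table holds 1 combined value per group. For the same reason, no replicate could be left out. The FPKM values used here carry no reads per gene and sample, so they give no precision for a ratio, and small differences between genes were not ranked against error. The authors' test columns were not used.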
